A study of Mus musculus with 4 samples.

Results

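Full-length copies of MERVL, the endogenous retrovirus that the labels also call MuERVL, were followed copy by copy in mouse E14 embryonic stem cells that carried an shRNA against it or a random shRNA. The members are the 690 rows of the deposited count table whose identifier is not an Ensembl gene and ends in the class L_I_L, meaning 2 long terminal repeats around an internal part; they are called full-length for this structure, and their lengths were not used. The table holds 45773 features in all, of which 2277 are single MERVL copies. The other 3 classes are L (1101 solo long terminal repeats), I (402 internal parts) and L_I (84 copies with 1 long terminal repeat). Every full-length identifier joins MT2_Mm, the name of the repeat, to a running number, and copies are called here by that number.

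MERVL is a retroviral element that entered the mouse germ line and multiplied there. Its long terminal repeat, MT2_Mm, acts as promoter and as transcription end, and its internal part encodes the Gag and Pol proteins without an envelope gene. The element is transcribed at the 2-cell stage of the mouse embryo, and again in the rare, fluctuating embryonic stem cells that resemble that stage, where the transcription factor DUX binds the repeat. Solo repeats remain where recombination between the 2 repeats of a copy has removed the internal part. The copies are described here by number and class alone, since the identifiers carry no genome position and no sequence of a copy was used.

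All 4 libraries came from E14 cells of the strain written 12910la, grown on gelatin in serum with LIF and transfected with 1000 ng of a pSuper puro plasmid; 24 h later puromycin at 1 µg/ml was added and kept for 4 days. In 2 libraries, labelled wild type in genotype, the titles name a random shRNA, and in the other 2 they name MERVL, with the genotype given as MERVL knocked down. The table's column names point to a single MERVL shRNA, numbered 3, and its sequence was not used here. The labels do not say whether the 2 libraries of a group came from separate cultures, so the p-values rest on the spread between libraries alone, and that spread may be technical. Column totals ran from 11628887 to 16067854 estimated counts. All 12 embryonic stem cell markers were detected, with summed levels of 8304 and 9494 CPM, the counts of a feature scaled to a common column total, under random shRNA and 9549 and 10054 CPM under MERVL shRNA. Of 8 fibroblast or feeder markers, Col3a1, Postn, Lum and Dcn were at 0 in every library; the others, led by Vim, which embryonic stem cells also express, summed to 260.3 and 242.5 CPM under random shRNA and to 167.8 and 174.3 CPM under MERVL shRNA. All 3 of these markers that could be tested were lower in edgeR at an unadjusted p under 0.05, as were 10.5% of all features tested. None passed adjustment. Thy1, a surface glycoprotein, stood at 23.4 and 29.6 CPM against 8.59 and 6.66 CPM (log2 fold change -1.79 ± 0.22, edgeR adjusted p = 0.210). Col1a1 was low throughout, at 2.00 and 1.29 CPM against 0.622 and 0.824 CPM. Of 6 trophectoderm markers, 5 had both MERVL shRNA libraries under the random shRNA pair, as had 24.2% of all features with a count. Of these 5, Cdx2, Gata3 and Elf5 had at most 0.55 CPM in any library and were not tested. Of the 3 tested, Krt8 was higher (log2 fold change 0.12 ± 0.21), and Eomes and Krt18 were lower (-0.75 ± 0.29 and -0.80 ± 0.33). None of the 3 passed in edgeR. Summed levels were 32.4 and 49.3 CPM under random shRNA and 30.2 and 32.3 CPM under MERVL shRNA. Of 6 primitive endoderm markers 0 had both MERVL shRNA libraries under the random shRNA pair. The part of these markers in the results below was not tested.

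Random shRNA replicate 1 stood apart from the other 3 libraries in RNA of the full-length copies. Scaled to column totals, the 690 copies together stood at 4182 CPM in that library and at 1282 CPM in random shRNA replicate 2. They stood at 999.5 CPM in MERVL shRNA replicate 1 and at 457.9 CPM in replicate 2. Both MERVL shRNA libraries were thus below both random shRNA libraries, and the gap inside the random shRNA pair, 3.26-fold, was wider than the 1.28-fold step from random shRNA replicate 2 to MERVL shRNA replicate 1. The MERVL shRNA pair differed 2.18-fold. As bulk RNA, these sums cannot tell fewer cells with active MERVL from less MERVL RNA per cell.

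With random shRNA the group mean was 2732 ± 2051 CPM (SD, n = 2). With MERVL shRNA it was 728.7 ± 383 CPM (SD, n = 2), giving a ratio of 3.75. In an edgeR quasi-likelihood fit of the class sums together with all genes, the log2 fold change of the full-length sum was -1.91 ± 0.59 (SE), which did not pass (adjusted p = 0.296, Benjamini-Hochberg over 15739 features). The exact 2-sided permutation test over the 4 libraries gave p = 0.333, the smallest that groups of 2 allow. Without random shRNA replicate 1 the sum of random shRNA replicate 2 was 1.76 times the mean of the MERVL shRNA libraries (log2 fold change -0.81 ± 0.29, edgeR adjusted p = 0.0959), less than the spread inside the MERVL shRNA pair. Without random shRNA replicate 2 it passed (-2.52 ± 0.27, edgeR adjusted p = 1.92e-05); the lone random shRNA library is then assumed to vary like the MERVL shRNA pair.

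Counting error in these sums was narrower than the gaps between libraries of a group. Full-length copies held 64807 estimated counts in random shRNA replicate 1, or 0.418% of that library (Wilson 95% interval 0.415% to 0.421%). They held 0.128% (0.126% to 0.130%) in random shRNA replicate 2, 0.1000% (0.0984% to 0.102%) in MERVL shRNA replicate 1 and 0.0458% (0.0447% to 0.0469%) in replicate 2. None of these intervals, which cover counting error only, overlapped another. For a single copy the depth was far thinner. The median copy had 71.3 counts in random shRNA replicate 1, 16.4 in replicate 2, 18.4 in MERVL shRNA replicate 1 and 7.78 in replicate 2.

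Estimated counts were spread over nearly every full-length copy, in each library. Most values were not whole numbers (95.7% to 97.4% per library), as when reads that match several copies are shared out. A count therefore does not show that the copy itself was transcribed, and the part of sharing in this spread was not tested. Of the 690 copies, 684 had a count in at least 1 library, and between 674 and 684 had one in any given library. Copies 890, 1016, 1245, 1350, 1351 and 1352 were at 0 in all 4, which allows up to 3 counts each per library. By comparison 673 of the 1101 solo repeats, 62 of the 84 copies of class L_I and 177 of the 402 internal parts had a count; the lengths of the copies were not used, so levels are not compared between classes. The median full-length copy stood at 4.60 and 1.41 CPM in the random shRNA libraries and at 1.14 and 0.534 CPM in the MERVL shRNA libraries. Within a library the upper quartile was 2.86 to 3.03 times the lower, so the spread between copies was nearly the same in all 4.

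**Figure D1:**
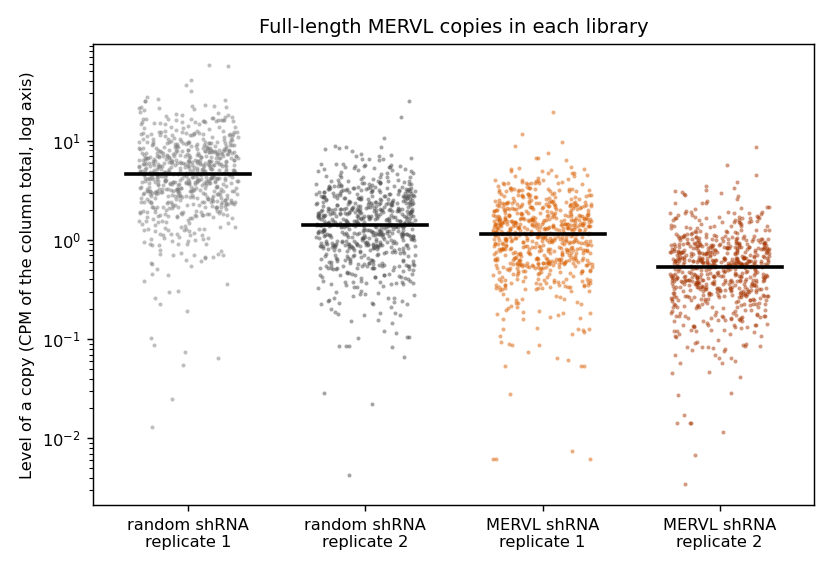
Level of each full-length MERVL copy in the 4 libraries, in CPM of the column total on a log axis; each point is a copy, copies at 0 are not drawn, and the black line is the median over all 690 copies. The whole cloud sits lower from left to right, with medians of 4.60, 1.41, 1.14 and 0.534 CPM, while its width stays alike.

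No small group of copies held most of the estimated counts. The 10 highest copies of a library held 8.48% and 8.68% of its full-length counts with random shRNA, and 8.76% and 9.16% with MERVL shRNA. The 69 highest held between 30.7% and 32.0%. It took 150 and 149 copies in the random shRNA libraries, and 151 and 150 in the MERVL shRNA libraries, to reach 50% of the counts. The class sum therefore differed 9.13-fold between the outermost libraries while the way its counts were spread over copies was nearly the same.

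**Figure D2:**
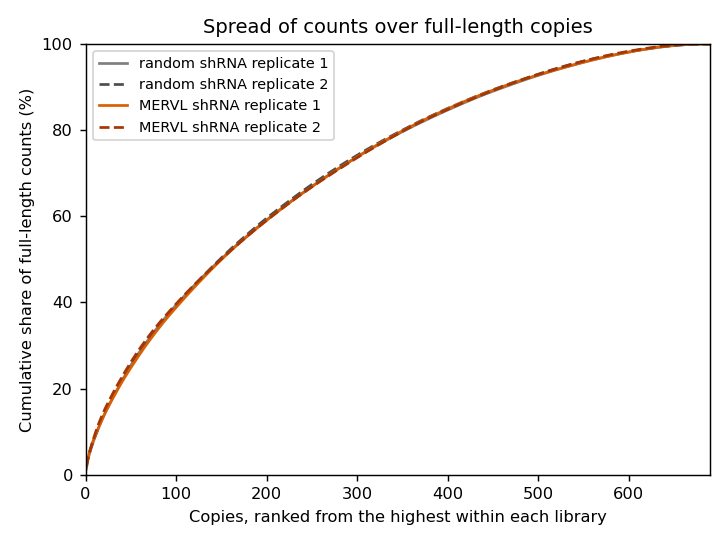
Cumulative share of full-length MERVL counts, in percent, against the number of copies ranked from the highest within each library; each line is a library. The 4 lines nearly coincide, crossing 50% at 149 to 151 copies.

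The order of the copies was alike as well. Over the 684 copies with a count, Spearman's rho was 0.957 between the random shRNA libraries, 0.904 between the MERVL shRNA libraries, and 0.888 to 0.955 between a random and a MERVL shRNA library. These values describe copies, which are not independent replicates. The 3 lowest values all involve MERVL shRNA replicate 2, where the median copy had the fewest counts; the part of depth in this was not tested. Of the 69 highest copies in each library, 43 were common to all 4, out of 93 that were among them in at least 1. Copies 439, 459, 633, 1440 and 1577 were among the 10 highest in every library.

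Copies differed between libraries by nearly the same factor. Over 536 copies with a mean of at least 1 CPM, random shRNA replicate 1 was a median of 3.30-fold above replicate 2, with 5% of copies below 2.32-fold and 5% above 4.77-fold, and all 536 were higher in replicate 1. The median fold from MERVL shRNA replicate 1 to replicate 2 was 2.23, and 527 of the 536 were higher in replicate 1. From random shRNA replicate 2 to MERVL shRNA replicate 1, the narrowest step between the groups, the median was 1.28-fold and 460 of 536 were higher with random shRNA. The same order of the 4 libraries, random shRNA replicates 1 and 2 and then MERVL shRNA replicates 1 and 2, was seen in 535 of the 684 copies with a count (78.2%) and in 6.89% of genes with a count. Over 95% of the copies' values were not whole numbers (95.7% to 97.4% per library), as when reads that match several copies are shared out, and the part of that sharing in the likeness of copies was not tested.

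**Figure D3:**
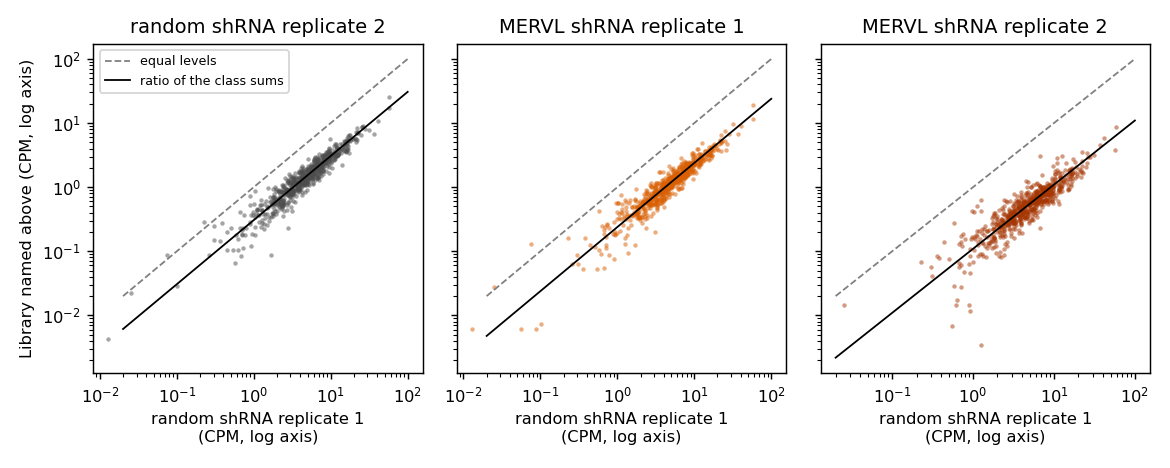
Level of each full-length copy in random shRNA replicate 2 and in MERVL shRNA replicates 1 and 2 (vertical axes) against random shRNA replicate 1 (horizontal axis), in CPM on log axes; copies at 0 in either library are not drawn. The points follow the black line, which is the ratio of the class sums, and lie below the dashed line of equal levels, apart from a few copies near the lowest levels.

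Highly and weakly represented copies had similar ratios. Copies were divided into 4 groups of 172 or 173 by their mean over all libraries. In the highest group, from 3.17 to 27.8 CPM, the ratio of the mean sums, random over MERVL shRNA, was 3.81. It was 3.72 and 3.66 in the next groups down and 3.56 in the lowest group, where the mean was at most 1.08 CPM. The random shRNA libraries differed by 3.20 to 3.28-fold in every group. The highest group held 54.3% and 54.1% of full-length counts in the random shRNA libraries and 53.8% and 52.5% in the MERVL shRNA libraries.

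Both MERVL shRNA libraries were below both random shRNA libraries for 556 of the 690 copies, or 81.3% of the 684 with a count. The same held for 24.2% of all features with a count, and for 35.4% of solo repeats, 31 of 62 copies of class L_I and 28.8% of internal parts with a count; those classes had fewer counts per copy. Random shRNA replicate 1 was above replicate 2 in 682 of the 684 copies, so leaving it out could hardly change the count, which was again 556. Without random shRNA replicate 2 the count was 682. The shares of all features with a library left out were not computed. No full-length copy had both MERVL shRNA libraries above both random shRNA libraries. In the 128 remaining copies with a count the overlap lay almost always with random shRNA replicate 2: 126 had MERVL shRNA replicate 1 at or above it and 15 had MERVL shRNA replicate 2 at or above it. Only copies 1362 and 1650, with at most 0.128 CPM in any library, reached the level of random shRNA replicate 1. Overlap was most frequent at low levels, with 63.6% of the lowest group and 89.6% of the highest group clear of it.

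In the edgeR fit across 16353 genes and copies, 558 full-length copies passed the filter on low counts and 0 passed an adjusted p of 0.05, where 0.00612% of all features tested did. At an unadjusted p under 0.05 edgeR gave 427 copies, each with a negative log2 fold change, against 10.5% of all features lower at that level. DESeq2 called 48 copies lower, where it called 0.96% of all features lower, and gave no adjusted p for 142 copies. Limma-voom called 0, with 249 at an unadjusted p under 0.05, a level at which its share of all features was not computed. With no filter edgeR called 528 copies lower (4.31% of all features), without random shRNA replicate 2 it called 629 (18.5%), and without random shRNA replicate 1 it called 3 (5.13%), copies 1140, 1149 and 1254. A fit with a further term for the replicate number called 343 (3.83%). With no filter 27235 features entered the estimate of spread, against 16353 in the main fit. The 528 calls therefore depend on that estimate. The smallest edgeR adjusted p of a full-length copy was 0.330. The filter takes a copy by its counts and so mostly through the libraries where it is high, and the following values over the 558 copies are a description. Their median log2 fold change was -1.93, with quartiles at -2.09 and -1.76, and all were negative; the median over all features tested was -0.07. Without random shRNA replicate 1 the median over 556 copies tested was -0.82.

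**Figure D4:**
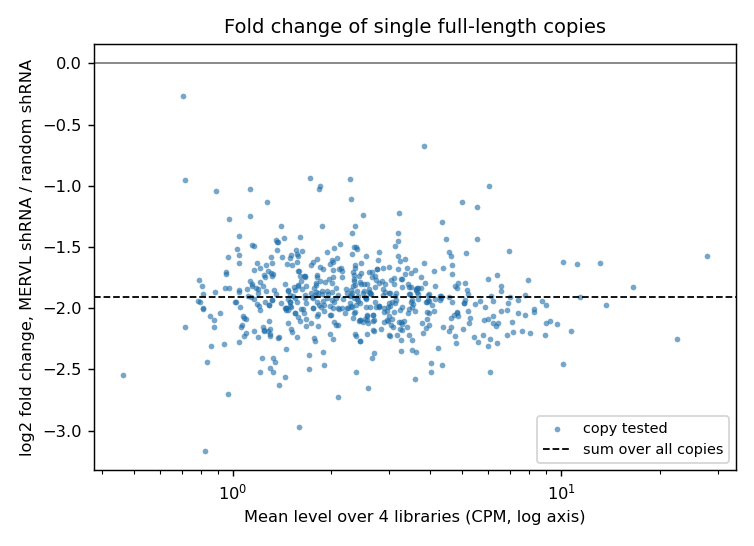
Log2 fold change, MERVL shRNA over random shRNA, of the 558 full-length copies tested, against the mean level over 4 libraries in CPM on a log axis; each point is a copy and the dashed line is the value of the summed class, -1.91. All points lie below 0, from -3.16 to -0.27.

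Among the 12 copies with the highest mean level, 11 had both MERVL shRNA libraries below both random shRNA libraries. The same held for 89.6% of the highest group of copies above and for 24.2% of all features with a count. Copy 439 had the highest mean, at 58.0 and 25.2 CPM in the random shRNA libraries and at 19.3 and 8.70 CPM in the MERVL shRNA libraries. It was the highest copy in all 4 libraries, and its groups did not overlap (log2 fold change -1.57 ± 0.50, edgeR adjusted p = 0.330). Its share of full-length counts was 1.39% in random shRNA replicate 1 and 1.90% to 1.97% in the other 3 libraries, so it was relatively less prominent in the library where MERVL was highest. Copy 1577, next in order, stood at 57.1 and 17.3 CPM with random shRNA and at 11.7 and 3.81 CPM with MERVL shRNA. Its share went the other way, from 1.36% and 1.35% with random shRNA to 1.17% and 0.832% with MERVL shRNA, and its log2 fold change was -2.25 ± 0.69 (edgeR adjusted p = 0.330). Copy 633 stood at 40.9, 10.7, 8.84 and 5.75 CPM, in the order random shRNA replicates 1 and 2 and then MERVL shRNA replicates 1 and 2. Copy 1257 stood at 36.9 CPM in random shRNA replicate 1, and at 6.76, 6.64 and 4.51 CPM in the others in that order. It had the widest gap between random shRNA libraries of the 12, at 5.46-fold, and random shRNA replicate 2 and MERVL shRNA replicate 1 were nearly level.

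Copy 459 was the exception to the separation of the groups among these 12. It stood at 31.6 and 7.89 CPM with random shRNA and at 9.68 and 3.17 CPM with MERVL shRNA, so that MERVL shRNA replicate 1 lay above random shRNA replicate 2. The other 7, copies 19, 1149, 1254, 1440, 1471, 1578 and 1671, stood between 22.1 and 27.8 CPM in random shRNA replicate 1 and between 1.68 and 3.47 CPM in MERVL shRNA replicate 2. Copy 1149 had the lowest log2 fold change of the 12, -2.45 ± 0.56 (edgeR adjusted p = 0.330), with 25.6 and 8.68 CPM against 3.86 and 2.37 CPM. Together the 12 held 9.55% and 9.70% of full-length counts with random shRNA and 9.78% in MERVL shRNA replicate 2.

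The copies with the smallest p-values were, apart from copy 1149, copies of middling level with random shRNA libraries closer together than the 3.26-fold of the class (2.02-fold in copy 1370 and 2.41-fold in copy 356). None passed, and all 6 had an edgeR adjusted p of 0.330. Copy 432 stood at 2.88 and 1.60 CPM with random shRNA and at 0.402 and 0.418 CPM with MERVL shRNA (log2 fold change -2.52 ± 0.51). Random shRNA replicate 2 exceeded MERVL shRNA replicate 1 by 3.98-fold in this copy. Copy 798 stood at 5.13 and 2.79 CPM against 0.797 and 1.01 CPM. Copies 1370 and 252 had log2 fold changes of -2.46 ± 0.53 and -2.49 ± 0.58, and the step from random shRNA replicate 2 down to MERVL shRNA replicate 1 was 3.13-fold and 2.87-fold. In the 5 copies other than 1149 the step between the groups was wider than the gaps inside them, unlike in the class as a whole. They were picked by p, so this is a description.

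The copies at the ends of the range of fold changes were picked by that value, so their shares and overlaps are a description. They took different shares of the class in the 2 groups. Of tested copies with a mean of at least 1 CPM, copy 356 had the lowest log2 fold change, -2.97 ± 0.68, with 4.01 and 1.66 CPM under random shRNA and 0.487 and 0.195 CPM under MERVL shRNA. Copies 938, 1281 and 424 followed at -2.73 ± 0.76, -2.65 ± 0.70 and -2.62 ± 0.77. In all 4 the groups did not overlap, with counts down to 2.76 (copy 424 in MERVL shRNA replicate 2).

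At the other end copy 915 had a log2 fold change of -0.68 ± 0.49 (edgeR adjusted p = 0.606). It stood at 6.77 and 2.65 CPM with random shRNA and at 2.84 and 3.08 CPM with MERVL shRNA, so 3 of its 4 libraries were nearly level. Its share of full-length counts was 0.162% and 0.206% with random shRNA and 0.284% and 0.672% with MERVL shRNA, and its rank among the 690 went from 212 and 145 to 73 and 9. Copy 1446 stood at 12.5 and 3.55 CPM against 4.96 and 3.08 CPM, and its rank went from 61 and 71 to 14 and 8. Copies 153 and 1152 had -0.95 ± 0.67 and -0.94 ± 0.76. The copies at this end too were picked by fold change. In these 4 copies MERVL shRNA replicate 1 was above random shRNA replicate 2, and without random shRNA replicate 1 their log2 fold changes were positive, from 0.16 to 0.33, none past the edgeR threshold. Below 1 CPM on average, copy 1453 had the highest value of all copies tested, -0.27 ± 0.59; it was named after its values were seen.

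The full-length class held most MERVL counts in every library, and its share was smallest where MERVL was lowest. It held 88.7% and 87.2% of MERVL counts in the random shRNA libraries and 86.8% and 82.5% in the MERVL shRNA libraries, a difference of means of -3.30 percentage points (exact permutation p = 0.333, the smallest possible). Most of the counts that were not full-length came from solo repeats, with 8.50% and 9.38% against 8.97% and 12.7%. From the highest to the lowest library the full-length sum differed 9.13-fold, solo repeats 5.69-fold, class L_I 7.20-fold and internal parts 3.46-fold. Log2 fold changes of those 3 sums were -1.63 ± 0.47, -1.58 ± 0.58 and -0.99 ± 0.37, none past the edgeR threshold, and the differences between classes were not tested beyond the share.

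The authors' deposited table of normalized scores gave another picture of the random shRNA pair. It holds 639 of the 690 copies. In these copies the estimated counts, as CPM, summed to 3.26 times more in random shRNA replicate 1 than in replicate 2, and no copy was higher in replicate 2. In the scores, replicate 2 was the higher library for 631 of the 639, by a median of 1.14-fold, with 5% of copies below 1.08-fold and 5% above 1.20-fold. Spearman's rho between the 2 random shRNA libraries was 0.999 over these scores. The gap inside the random shRNA pair was thus absent from the scores, whereas the MERVL shRNA pair kept a gap of 2.28-fold in the summed score. The sources used here do not say how the scores were computed.

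With the scores, the groups separated for almost every copy. The summed score was 29134 and 33405 in the random shRNA libraries and 15363 and 6731 in the MERVL shRNA libraries, a ratio of group means of 2.83. Both MERVL shRNA scores were below both random shRNA scores for 627 copies (98.1%), where the same held for 40.1% of all features in that table. Limma on log2(score + 1) called 144 copies lower and 0 higher, where it called 14.5% of all features lower, and gave the sum a log2 fold change of -1.62 ± 0.45 (limma adjusted p = 0.0739). Copy 150 was the single copy with both MERVL shRNA scores above both random shRNA scores, at 7 and 4 against 3 and 3. Its estimated counts were 8.90 and 0.76 with random shRNA and 6.80 and 3.96 with MERVL shRNA, too few to order the libraries.

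**Figure D5:**
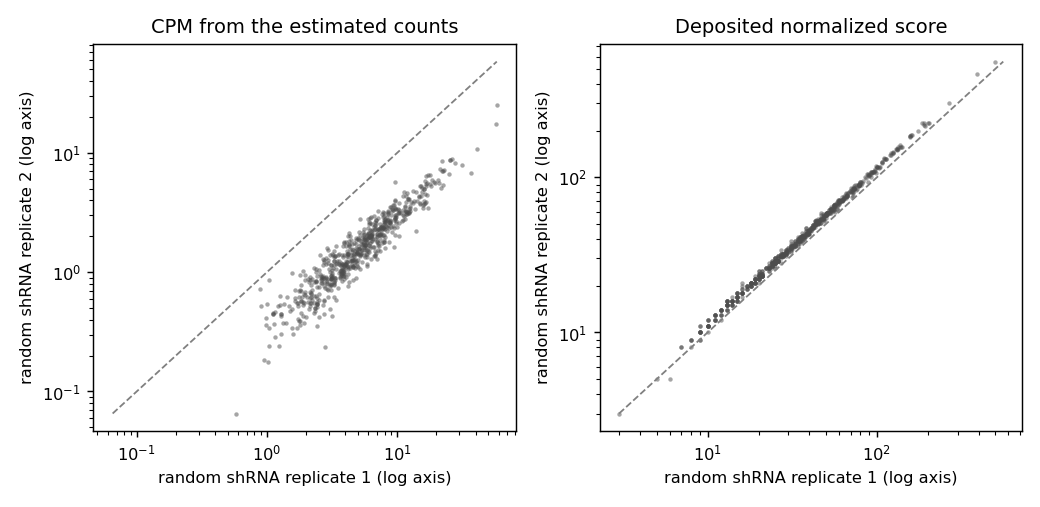
Random shRNA replicate 2 against replicate 1 for the 639 full-length copies in both tables, as CPM from the estimated counts (left) and as the authors' normalized score (right), all axes logarithmic; each point is a copy and the dashed line marks equal values. All points lie below the line on the left and nearly all lie just above it on the right.

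Genes known for transcripts that start in or accompany MERVL mostly had their values in the order of libraries seen in the copies, 17 of 26 against 6.89% of all genes with a count. Of 28 such genes listed from general knowledge, 26 were in the table and 24 were tested; all 24 had a negative log2 fold change, with a median of -2.07 against -0.07 over all features. None passed in edgeR, where 17 reached an unadjusted p under 0.05. Of all features tested, 10.5% were lower at that level. In 20 of the 26 both MERVL shRNA libraries lay below the random shRNA pair, as in 24.2% of all features with a count. Zfp352, a zinc finger gene of the 2-cell embryo, stood at 6.97 and 2.15 CPM with random shRNA and at 1.37 and 0.412 CPM with MERVL shRNA. Tmem92, a membrane protein gene, stood at 43.7 and 12.8 CPM in the random shRNA pair; the MERVL shRNA pair had a mean of 4.06 CPM and differed 2.83-fold, with 2.12 CPM in replicate 2 (log2 fold change -2.80 ± 0.70, edgeR adjusted p = 0.330). The ratio of random shRNA replicate 1 to replicate 2 was 3.24 in Zfp352 and 3.42 in Tmem92, and over the 26 genes it ran from 0.400 in Chit1 to 8.09 in Pramel7. Ubtfl1, an HMG-box gene of the early embryo, had -2.58 ± 0.54 and Usp17lc, a deubiquitinase gene, -2.06 ± 0.51. Tcstv1 stood at 17.4 and 2.36 CPM against 0.124 and 0.275 CPM. Without random shRNA replicate 1, an alternative chosen after seeing the data, the median was -0.91 over 25 tested genes. Over all features in that fit it was -0.08. Some of these genes have near-identical relatives, which makes their single values uncertain.

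Activators of MERVL had a less negative median, and the median repressor was near 0. Of 13 activators listed, a list that also holds Mbd3 of the NuRD repressor complex (-0.10 ± 0.15), 11 were tested, with a median log2 fold change of -0.81; 0 passed in edgeR and 5 were lower at an unadjusted p under 0.05, against 10.5% of all features. Without random shRNA replicate 1 the median was -0.15, against -0.08 over all features. Nelfa then had -0.57 ± 0.10 and Tbx3, a T-box transcription factor, 0.53 ± 0.11, both named by their values in that fit. Duxf3, a member of the family of DUX transcription factors, stood at 6.94 and 2.99 CPM with random shRNA and at 0.827 and 1.21 CPM with MERVL shRNA (-2.29 ± 0.54, edgeR adjusted p = 0.330). Its groups did not overlap, and random shRNA replicate 1 was again the higher of its pair. Zscan4c, a telomere factor of 2-cell-like cells, had -1.90 ± 0.60, Nelfa, of a transcription elongation complex, -1.20 ± 0.33 and Gata2, a GATA transcription factor, -2.05 ± 0.51. The median over 31 tested repressors was -0.02, with 16 negative, 0 passing in edgeR, and 0 lower and 1 higher when p was not adjusted. That gene was Hdac2, a histone deacetylase (0.38 ± 0.14, edgeR adjusted p = 0.336). Without random shRNA replicate 1 the repressor median was 0.11. Named by their values in that fit, Chaf1b had -0.52 ± 0.10, Kdm5b, a histone demethylase, 0.50 ± 0.10, and the transcription factor Myc 0.78 ± 0.12. With all libraries Chaf1a and Chaf1b, subunits of the CAF-1 histone chaperone, had -0.39 ± 0.17 and -0.34 ± 0.17, and Uhrf1, a cofactor of maintenance DNA methylation, -0.31 ± 0.16.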

How the data were processed

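RNA-seq of 2 random shRNA and 2 MERVL shRNA libraries was used, with groups and replicate numbers from the sample titles. Per the submitters' processing notes Trim Galore, HISAT2 and the build mm10 were used; versions, the counting program and its use of strand were not given in the sources used here. The authors deposited estimated counts per gene and per MERVL copy, and a table of normalized scores, both mapped column by column. Levels are CPM of the column total. Estimated counts were rounded and fitted with edgeR 4.0.16 (R 4.3.3; quasi-likelihood F test, 2-sided, column totals as library sizes, filterByExpr, no replicate term), with Benjamini-Hochberg adjustment across every feature in the fit and a threshold of 0.05. The F statistic gave the standard errors. The fit was also run on simulated data. These had no gaps between libraries of a group like those seen here, so that run does not bear on the calls. Class sums were fitted with the genes in a second fit. Scores were tested with limma 3.58.1 on log2(score + 1), keeping a mean score of at least 1. Alternatives were TMM scaling, DESeq2 1.42.0, limma-voom, no filter, a replicate block and leaving out each library. Symbols matched 42329 Ensembl identifiers.

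Copies are named by rule: the 12 with the highest mean, 6 with the smallest p, and 4 at each end of the log2 fold changes, the latter with a mean of at least 1 CPM; list genes are up to 4 with the smallest p, and Zfp352 was added. A further rule for genes near a copy was not applied, since copies have no position. Members, lists and tests were chosen with earlier results of these data known.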

Additional observations from a re-analysis of the deposited data

How the results depend on the processing

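With 2 libraries a group, the calls rest on how the spread is estimated and on random shRNA replicate 1. For the full-length sum the log2 fold change was negative under every alternative run, from -2.58 (without MERVL shRNA replicate 1) to -0.81 (without random shRNA replicate 1) with a library left out. It passed the edgeR threshold with no filter (-1.91, adjusted p = 4.19e-24). That fit took in 25746 features instead of 15739, and at an unchanged estimate the SE fell from 0.59 to 0.18. This p rests on the smaller SE and does not measure the gap inside the random shRNA pair. Leaving out random shRNA replicate 2 gave -2.52, with a lone random shRNA library. TMM scaling, DESeq2, limma-voom, the scores, the 5 copies with whole counts in all libraries (529, 747, 796, 456 and 1564) and leaving out the 10 highest copies gave -1.91 to -1.62 and no pass. The 5 copies with whole counts each had at most 1.68 CPM in any library, so their value lies near the floor. What libraries of the same number share is not in the labels. With the replicate number as a block, the sum passed (-1.78 ± 0.23, edgeR adjusted p = 0.00787) and 343 copies were called lower, as were 3.83% of all features. The deviations of same-numbered libraries from their group means had r = 0.45 over full-length copies, 0.22 over all features and 0.04 over genes. They were taken on log2(CPM + 1), where the added 1 shrinks the deviations of low copies. These values of r therefore do not show that same-numbered libraries share anything. The count of copies called, 0 in edgeR, was 48 with DESeq2, 528 with no filter and 144 with the scores (0.96%, 4.31% and 14.5% of all features were called lower there), and ran from 0 to 629 with a library left out. It was 629 without random shRNA replicate 2 (18.5% of all features lower) and 3 without random shRNA replicate 1 (5.13%); none was called higher. The median log2 fold change over copies tested ran from -2.58 to -0.82 with a library left out, the latter without random shRNA replicate 1. The count of copies with both MERVL shRNA libraries below both random shRNA libraries was 535 with TMM scaling. The share of all features under that scaling was not computed. With a library left out, copies 915, 1152, 153 and 1446 ran from -1.19 to 0.16, -1.87 to 0.33, -1.55 to 0.20 and -1.62 to 0.20, each positive without random shRNA replicate 1. Of 238 values for 24 named copies, which were picked by level, p or fold change, these 4 reversed. With a median of 7.78 counts in MERVL shRNA replicate 2, differences between single copies are limited by depth.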
